A study of Mus musculus with 4 samples.

Results

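Tripartite motif (TRIM) proteins share a RING finger, 1 or more B-box zinc fingers and a coiled coil. Most act as ubiquitin ligases, which attach ubiquitin to target proteins, and the domain at the far end of the protein sets the target. In striated muscle, Trim63 (MuRF1), Trim55 (MuRF2) and Trim54 (MuRF3) sit on the sarcomere, and Trim72 (MG53) takes part in sealing membrane tears. Another set of members is switched on by interferon and acts in antiviral defence. In the left ventricular RNA described here, 67 of 38355 genes in the count table had a symbol made of Trim, a number and at most 1 letter from a to d. The 42 with 10 or more raw counts in at least 2 libraries were followed, and all 42 also passed the filter on low counts used in the fits. Of the 25 left out, 11 were at 0 in every library, and the highest count in any of them was 19, for Trim34b in WT 1.

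Each of 4 mice gave 1 library, made from RNA of the free wall of the left ventricle. In the transgenic group (TG) were 2 mice carrying VSFP2.3, a fluorescent protein that reports membrane voltage and that the series title places in cardiomyocytes. The wild-type group (WT) had 2 mice. WT 1 and TG 1 were males aged 35 weeks, WT 2 and TG 2 were females aged 19 weeks, and the same parents are listed for all of them. No treatment was given. The sources used here do not name the strain or the promoter driving the transgene. The submitters' stated purpose was to ask whether the transgene harms the heart.

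Library totals ran from 14158440 to 16762713 counts, so a count of 0 allows up to 3 counts, for counting error only. Levels are given in CPM, counts scaled to a fixed library total. Without the TMM scaling used elsewhere, that limit is 0.179 to 0.212 CPM. The ventricular markers Myl2 and Tnni3 were abundant in all libraries, and counts of Xist and Ddx3y matched the labelled sex of each mouse. Markers of other cells differed between libraries, and in bulk tissue fewer cells of a type and less RNA per cell cannot be told apart. The summed CPM of 12 leukocyte markers, 11 of which were tested, came to 1306 in WT 1, 1069 in TG 2, 272 in WT 2 and 267 in TG 1. Of 5 atrial markers, the light chain Myl4 stood at 75.6 CPM in the WT 2 library, and the other libraries held 0.711 to 1.16. Myl7 and Sln were also highest in WT 2, at 71.1 and 19.1 CPM. The other 2 markers were lowest there. Nppa, the most abundant, had 1057 CPM in WT 2 and 1556 to 4228 elsewhere, and Bmp10 had 0 and 0.182 to 0.498. Only Myl4 and Nppa were tested, and Nppa passed the edgeR test of the crossed ratio defined below (adjusted p = 0.0224). The transgene's own RNA was not analysed here, and no measured gene checks which mice carried it.

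The 4 muscle members led the family. In CPM per kb of exon, a level that allows genes to be compared, the mean over libraries was 219 for Trim72, 120 for Trim54, 67.5 for Trim63 and 34.2 for Trim55. Next came Trim35 at 28.2 and the chromatin cofactor Trim28 at 14.3, and the lowest member followed was Trim6 at 0.125. In raw counts, the 42 genes took 0.162 to 0.205% of each library, and the muscle members took 50.2 to 53.9% of those counts. The order of the top 2 was the same in each library. Trim55 and Trim35 were close, with Trim55 between 31.4 and 40.1 CPM per kb and Trim35 between 23.7 and 31.7.

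**Figure D1:**
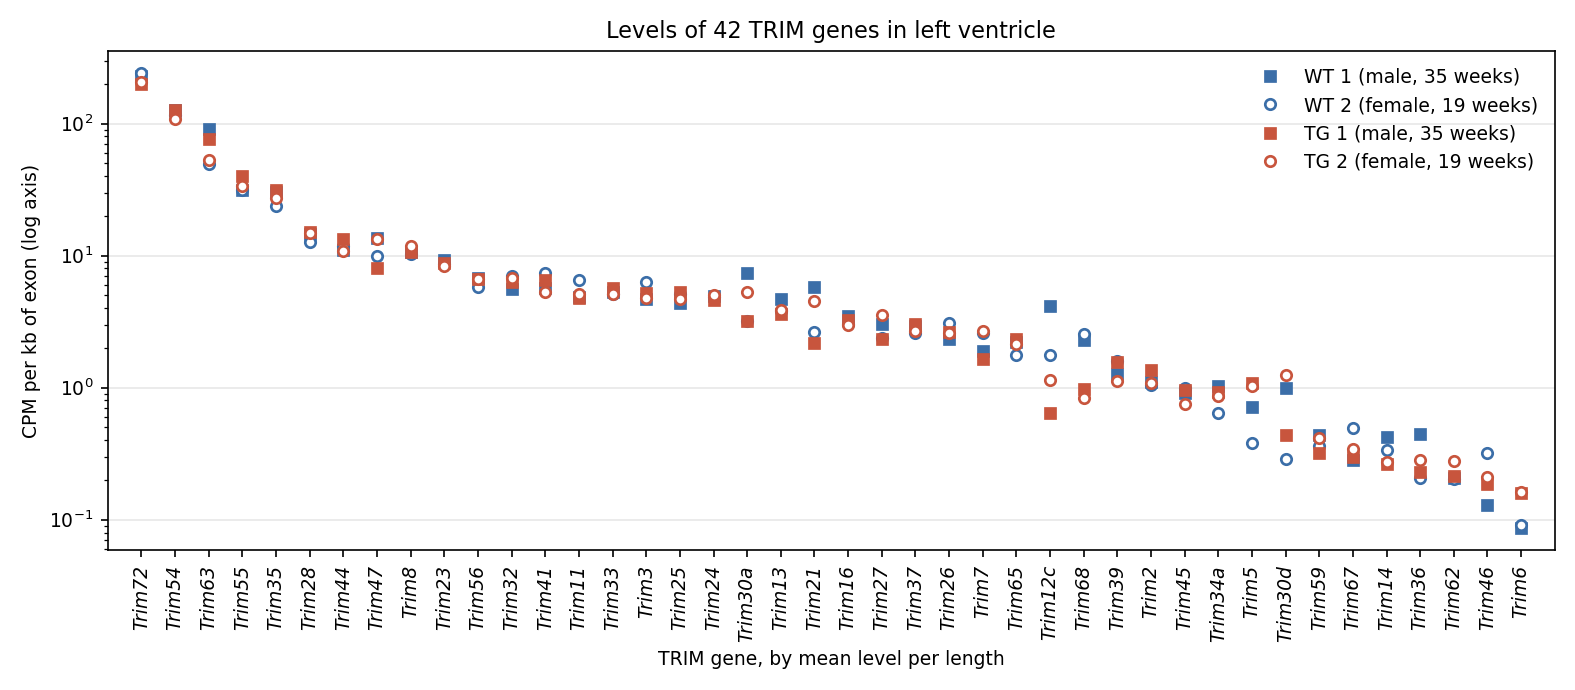
Level of each of the 42 TRIM genes in CPM per kb of exon (log axis) in the 4 libraries, ordered by mean; squares are males and circles females, blue is WT and red TG. Trim72 leads at a mean of 219, Trim6 is lowest at 0.125, and Trim12c and Trim30d have the most widely spread points.

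Trim63 tags thick-filament and other muscle proteins for the proteasome and rises in muscle wasting. Its gene lies on chromosome 4, 134315120 to 134329629, in the mm10 assembly. The 35-week males had 259 CPM (WT 1) and 217 (TG 1), and the 19-week females had 141 (WT 2) and 150 (TG 2). Both males were above both females, while TG and WT overlapped. The fitted log2 ratio of males over females was 0.71 ± 0.15 (SE, 2 mice per group here and throughout), or 1.64-fold, the smallest unadjusted p among the members with higher values in males. The quasi-likelihood test of edgeR, adjusted by Benjamini-Hochberg, did not call it (adjusted p = 0.999), and DESeq2 did (adjusted p = 0.0287). Without WT 2, the library with the high Myl4 value, the edgeR ratio was 0.66. The summed erythroid markers were also higher in the males, at 719 and 236 CPM against 183 and 142, and their part in this was not tested. Sex and age cannot be told apart in these mice. Between TG and WT, Trim63 had a log2 ratio of -0.12 ± 0.35.

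The other MuRF genes were flatter. Trim54, which binds microtubules and the Z-disc region, lies on chromosome 5, 31116712 to 31137630. It was at 182.5 CPM in WT 1, 167.5 in WT 2, 182.2 in TG 1 and 156.5 in TG 2, with both males above both females by a log2 ratio of 0.17 ± 0.12. Trim55, which links microtubules, titin and myosin during sarcomere assembly, lies on chromosome 3, 19644474 to 19692421. The WT libraries held 84.0 and 83.4 CPM, and TG 1 and TG 2 held 107 and 89.98. Both TG libraries were above both WT libraries, with a log2 ratio of TG over WT of 0.23 ± 0.15 (edgeR adjusted p = 1.00). Of the raw counts of these 3 genes together, Trim63 took 49.3% in WT 1 (95% exact binomial interval 48.2 to 50.3%) and 42.9% in TG 1 (41.7 to 44.0%). In the females it took 35.9% (34.7 to 37.2%) in WT 2 and 37.9% (36.6 to 39.1%) in TG 2. All intervals of shares given here cover counting error only and leave out differences between mice. They treat reads as independent molecules, which reads are not, so they may be too narrow.

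Trim72, the membrane-repair member, lies on chromosome 7, 128003949 to 128011033. The WT libraries held 515 and 535 CPM, and TG 1 and TG 2 held 445 and 462. Both TG libraries were below both WT libraries, and the ratio was alike in the male pair (log2 -0.21) and the female pair (-0.21). The fitted log2 ratio of -0.21 ± 0.13 did not pass the edgeR test (adjusted p = 1.00). Of 9 skeletal muscle markers 2 were high enough to test, and their sum was 31.4 and 36.5 CPM in TG against 59.2 and 48.3. Nearly all of it was Mybpc2, at 30.1 and 34.3 against 57.1 and 45.9, and each of the other 8 lay between 0 and 1.03 CPM. Their part in the Trim72 values was not tested.

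**Figure D2:**
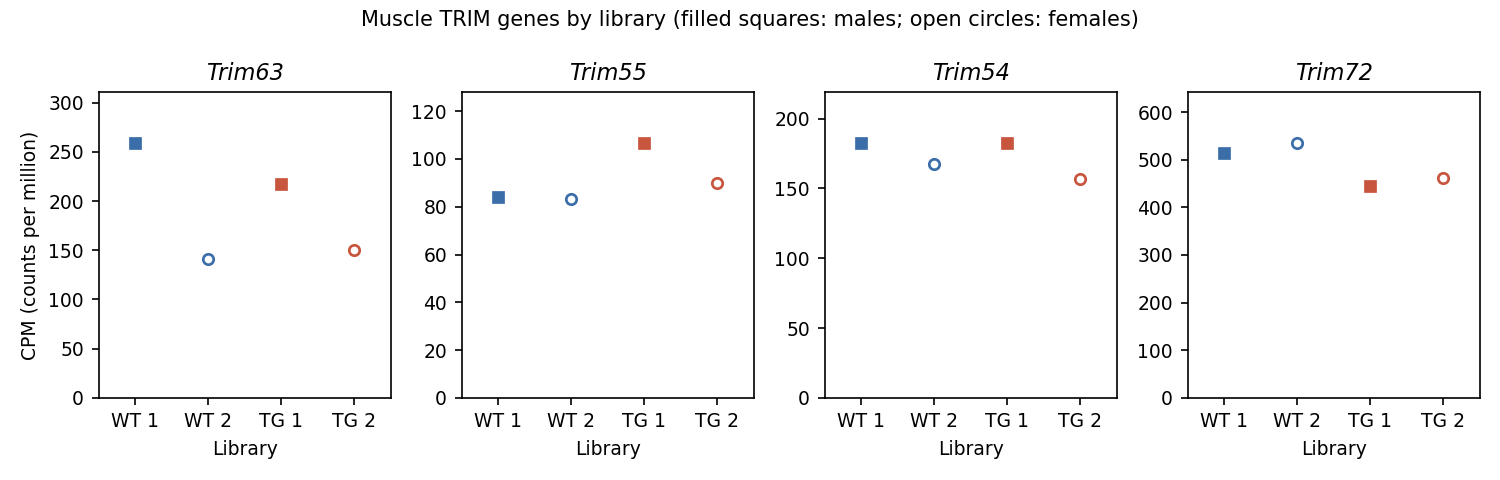
CPM of the 4 muscle TRIM genes in each library, on linear axes from 0; filled squares are 35-week males and open circles 19-week females. Trim63 is higher in the males (259 and 217) than in the females (141 and 150), and Trim72 is lower in TG (445 and 462) than in WT (515 and 535).

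Genes that act with the muscle members were taken from fixed lists. In no comparison did a gene of the muscle lists pass the edgeR test. Of 12 other muscle ubiquitin ligases, 9 had higher values in the males, against 51.9% of all genes tested. Their median log2 ratio was 0.21, against 0.01 over all genes tested. Fbxo32 (atrogin-1), the usual companion of Trim63 in muscle wasting, had 385 and 482 CPM in the males and 291 and 305 in the females, a log2 ratio of males over females of 0.54 ± 0.16. Traf6, a ligase of innate and atrophy signalling, had one of 0.24 ± 0.14. Among 12 genes of FOXO and glucocorticoid signalling, 6 were higher and 6 lower in the males, with a median of -0.07. The list mixes genes of different and opposite roles, so no direction for Trim63 is read from its counts or medians. Mstn, a brake on muscle growth, was at 0.182 and 0.569 CPM in the males and at 1.41 and 1.59 in the females, and Akt1, a kinase that restrains FOXO, had a log2 ratio of -0.25 ± 0.12. Between TG and WT, 9 of those 12 genes were higher, against 47.5% of all genes, with a median log2 ratio of 0.35 against -0.01. The 3 lower were Foxo4, Nr3c1 and Klf15, at -0.10, -0.06 and -0.03. The smallest unadjusted p-values were those of Ddit4 at 0.90 ± 0.30 and Per1 at 1.24 ± 0.49. Of 15 targets and partners of the MuRF proteins and Trim72, 6 were higher in TG. The caveolin Cav3 and the transcription factor Srf had log2 ratios of TG over WT of -0.24 ± 0.14 and -0.21 ± 0.17. The FOXO element GTAAACA, searched on both strands in windows of 250 bases before to 50 after the RefSeq start, was found once in the Trim63 window, upstream of the start. It was found in 2 of the 32 members with a window and in 4.05% of all 27025 genes with one.

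Between TG and WT, none of the 42 members passed the edgeR test, the same as for all 14189 genes tested (0% called). At an unadjusted p below 0.05 there were 2 members, Trim68 and Trim12c, and 0.698% of all genes. DESeq2 and limma-voom also called 0 members, with 2 and 3 at an unadjusted p below 0.05. The median log2 ratio of the members was -0.05, against -0.01 over all genes, and 18 were higher and 24 lower. In 9 members the TG and WT values did not overlap, against 21.0% of all genes. The 5 higher in TG were Trim5, Trim6, Trim55, Trim28 and Trim62, against 10.3% of all genes, and the 4 lower were Trim68, Trim12c, Trim14 and Trim72, against 10.7%. At this share near the background, the count says nothing particular about the family. Trim6 reached 10 counts only in the TG libraries, so the count rule fixed its direction. With 2 mice per genotype, an exact two-sided permutation test of a single gene cannot go below p = 0.333. Nothing in the labels says how many litters the mice came from. The p-values rest on the spread among these 4 animals, with variance estimates shared across genes. Genotype was the only term, so differences by sex and age count as spread in this fit.

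Trim68, a nuclear RING ligase described as a cofactor of the androgen receptor, had the smallest unadjusted p of the members between TG and WT. Its gene lies on chromosome 7, 102677582 to 102687327. It had 132 and 138 raw counts in WT 1 and WT 2, and 48 and 44 in TG 1 and TG 2. In CPM these were 8.03 and 8.83 against 3.41 and 2.92, so the WT values lay well above the TG values in both the male and the female pair. The fitted log2 ratio was -1.41 ± 0.24, or 2.66-fold lower, with an edgeR adjusted p of 1.00. Without WT 2 it was -1.34. No exon of another annotated gene overlapped those of Trim68, and no transcript of another gene matched it at 85% identity or more over 200 bases.

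Trim68 belongs to a run of 9 members on chromosome 7, from 102557921 to 105633571 (3.08 Mb), that also holds 12 other tested genes, adult beta-globin genes among them. The run is ordered Trim21, Trim68, Trim6, Trim34a, Trim5, Trim12c, Trim30a, Trim30d and Trim3. TG and WT did not overlap in 4 of these 9 (Trim68, Trim6, Trim5 and Trim12c), in 2 of the 12 other tested genes there (Smpd1 and Apbb1), and in 5 of the 33 members elsewhere, against the 21.0% of all genes given above. The stretch was taken from the positions of the members, and the counts are a description. Trim6 was followed only because of its TG counts, so its place among the 4 was set by the count rule.

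Trim5, related to the human retroviral restriction factor TRIM5, and its neighbour Trim12c lay in opposite directions between the genotypes. Trim12c had 15.4 and 6.59 CPM in WT 1 and WT 2, and TG 1 and TG 2 had 2.42 and 4.25, a log2 ratio of -1.72 ± 0.52. Trim5 had 2.62 and 1.41 CPM in the WT libraries, and the TG libraries had 3.98 and 3.78, a log2 ratio of 0.94 ± 0.41. Neither passed the edgeR test (adjusted p = 1.00 for both). For Trim12c the log2 ratio was -0.98 without WT 1 and -2.20 without WT 2, and for Trim5 it was 1.46 and 0.57. Their transcripts are 94.6% identical over 3710 bases, so reads may be split between them and both levels are uncertain. Of the raw counts of both together, Trim5 took 14.5% in WT 1 (95% exact binomial interval 10.7 to 19.0%) and 17.6% in WT 2 (11.4 to 25.4%). It took 62.2% in TG 1 (51.4 to 72.2%) and 47.1% in TG 2 (38.0 to 56.4%). Both TG shares lay above both WT shares. This share was chosen after the values of both genes were seen. The low-count neighbour Trim6 had 7 and 7 raw counts in WT and 11 and 12 in TG, a log2 ratio of 0.84 ± 0.48.

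**Figure D3:**
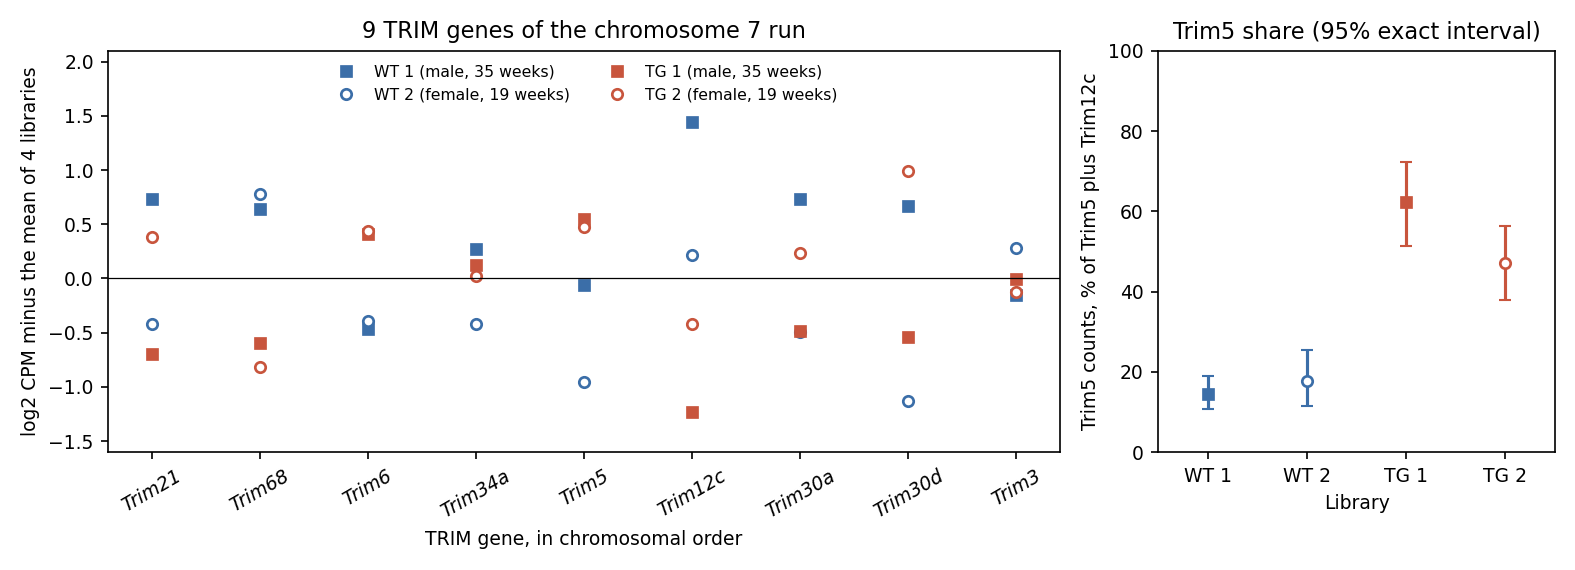
Left, log2 CPM of the 9 TRIM genes of the chromosome 7 run in each library, minus the mean of the 4 libraries, in chromosomal order; right, Trim5 counts as a percentage of Trim5 plus Trim12c, with 95% exact binomial intervals. Blue (WT) and red (TG) points separate for Trim68, Trim6, Trim5 and Trim12c, and the Trim5 share is 14.5 and 17.6% in WT against 62.2 and 47.1% in TG. Trim6 met the count rule only through its TG libraries.

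Interferon acts through transcription factors that bind the interferon-stimulated response element, a pair of GAAA repeats near the start of target genes. Of 14 TRIM genes listed as interferon-induced, 10 had enough counts. Trim12a, Trim30b, Trim30c and Trim34b did not. The core searched was GAAA, any 2 bases and GAAA. On either strand it was found in the RefSeq window (GRCm38.p6) of 7 of the 9 of these genes that had a window, namely Trim5, Trim12c, Trim21, Trim26, Trim30a, Trim30d and Trim34a. No match lay in the windows of Trim25 and Trim56, and Trim14 had no window. The core was found in 1 of 23 other members with a window (Trim2) and in 3.99% of all genes with one. Counted over windows, the share was 3.44% of 32851. In Trim21 and Trim26 a pair of matches overlaps. A match is a description of the letters and not of binding. The stretches below belong to 5 genes of the chromosome 7 run that carry the core, picked after their values were seen. Trim34a of the same run also carries it and is not shown. They are read 5′ to 3′ on the strand of each gene, with the core in capitals.
Trim30a, chr7:104465194-104465269, minus strand, bases 76 to 1 before the start: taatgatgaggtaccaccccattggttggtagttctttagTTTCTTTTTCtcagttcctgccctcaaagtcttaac
Trim30d, chr7:104507850-104507930, minus strand, bases 81 to 1 before the start: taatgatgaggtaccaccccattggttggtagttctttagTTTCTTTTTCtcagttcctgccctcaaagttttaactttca
Trim12c, chr7:104353350-104353418, minus strand, bases 69 to 1 before the start: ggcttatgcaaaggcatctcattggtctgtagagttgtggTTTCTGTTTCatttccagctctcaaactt
Trim5, chr7:104288107-104288195, minus strand, bases 89 to 1 before the start: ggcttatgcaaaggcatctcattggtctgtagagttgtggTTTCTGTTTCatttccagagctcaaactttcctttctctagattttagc
Trim21, chr7:102565448-102565475, minus strand, bases 8 to 35 counted from the start: tgagagGAAACTGAAAGTGAAAtttgga
Aligned from their first base, Trim30a and Trim30d are alike at 75 of 76 bases, and Trim5 and Trim12c at 67 of 69. Each of these near copies was counted as a separate gene among the 7 with the core, so the 7 are not independent.

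A further comparison asked whether the male pair and the female pair differed in their TG to WT ratio, with the interaction as the only term. Each pair holds 1 mouse of each genotype, so a difference by sex and age cannot be told apart from differences between single mice. The value of this comparison is called the crossed ratio here: WT 1 with TG 2, divided by WT 2 with TG 1. It is a ratio between these sides and not the size of the difference between the pair ratios. All 3 comparisons use the same 4 libraries. This one was known from earlier results of these data to hold large differences, and 386 of all 14189 genes passed the edgeR test (2.72%), 40 without WT 1 and 109 without TG 2. Of the 42 members 1 passed, Trim21, with a crossed ratio above 1 (2.37% of all genes passed in that direction), a share near the background, and 6 had an unadjusted p below 0.05, against 16.2% of all genes. Values did not overlap between the sides of the ratio in 18 members, against 47.5% of all genes, with 11 higher and 7 lower, against 24.6% and 22.9%.

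Trim21, a cytosolic antibody receptor that sends antibody-bound viruses to the proteasome, had 356, 152, 113 and 255 raw counts in WT 1, WT 2, TG 1 and TG 2. In CPM, WT 1 had 21.6 and TG 2 had 16.9, both above the 9.72 of WT 2 and the 8.04 of TG 1. TG 1 was therefore below WT 1 in the male pair (log2 -1.41), and TG 2 was above WT 2 in the female pair (0.79). The fitted log2 crossed ratio was 1.12 ± 0.20, or 2.17-fold, with an edgeR adjusted p of 0.0481. The call was lost with limma-voom (adjusted p = 0.0598) and without any single library (adjusted p from 0.0585 to 0.336). By genotype alone its log2 ratio was -0.33 ± 0.52.

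Trim30a, which restrains Toll-like receptor signalling, had 30.6 CPM in WT 1 and 21.7 in TG 2, while WT 2 had 13.1 and TG 1 had 13.2. Its log2 crossed ratio of 0.99 ± 0.20 had an edgeR adjusted p of 0.0673, and DESeq2 gave 0.00471. Its close copy Trim30d, 90.1% identical over 1719 bases, had 3.77 CPM in WT 1 and 4.72 in TG 2, while WT 2 had 1.09 and TG 1 had 1.64. That log2 crossed ratio was 1.64 ± 0.32 (edgeR adjusted p = 0.0623, DESeq2 adjusted p = 0.0300). Reads may be shared between these copies, so both levels are uncertain. These 3 genes were high in the libraries in which the summed leukocyte markers were high, at 1306 and 1069 CPM against 272 and 267. Cd74 alone gave 573 and 497 CPM of the sums in WT 1 and TG 2, against 45.2 in WT 2 and 35.1 in TG 1. Of 11 leukocyte markers tested, 8 passed this comparison, all higher in WT 1 and TG 2, against 2.37% of all genes. Ptprc, for example, was at 73.4 and 60.3 against 11.6 and 9.53 CPM. Summed over 12 cardiomyocyte markers, of which Ttn was the most abundant, WT 1 and TG 2 had 135000 and 137200 CPM and the others 179100 and 210100. Of these markers 9 had a crossed ratio below 1 and 3 above, against 7221 of all 14189 genes below. The median was -0.09 (log2), and 0 passed. The part of either in the TRIM values was not tested.

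None of the remaining interferon-induced members passed, and their values lay closer together or overlapped. Trim12c and Trim5, whose upstream stretches carry the same core, had log2 crossed ratios of 1.12 ± 0.68 and 0.26 ± 0.50. Both signs turned when 1 library was left out, to -0.092 for Trim12c without WT 1 and to -0.32 for Trim5 without WT 2. Trim25, which ubiquitinates the RNA sensor RIG-I, was at 25.3, 29.3, 30.4 and 27.2 CPM in WT 1, WT 2, TG 1 and TG 2. Trim56, linked to STING and RNA-virus defence, was at 63.3, 53.6, 62.1 and 62.2 CPM in the same order. Trim26 was at 16.1, 21.1, 18.1 and 17.8 CPM, and its window holds the core. Trim34a ran from 1.66 to 2.68 CPM, and it is 98.7% identical to Trim34b over 1827 bases. Trim14, an adaptor at mitochondria in RNA sensing, had 1.82 and 1.47 CPM in the WT libraries, while TG 1 and TG 2 had 1.14 and 1.195 (log2 ratio -0.50 ± 0.39). It shares 31.3% of its exonic length with Nans on the opposite strand, and the strand setting of the counting is not given in the sources used here, so its level is uncertain. Over the 10 genes, 8 had a crossed ratio above 1, against 49.1% of all genes, with a median log2 value of 0.27 against -0.01. Between TG and WT, 5 of the 10 were higher and 5 lower.

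**Figure D4:**
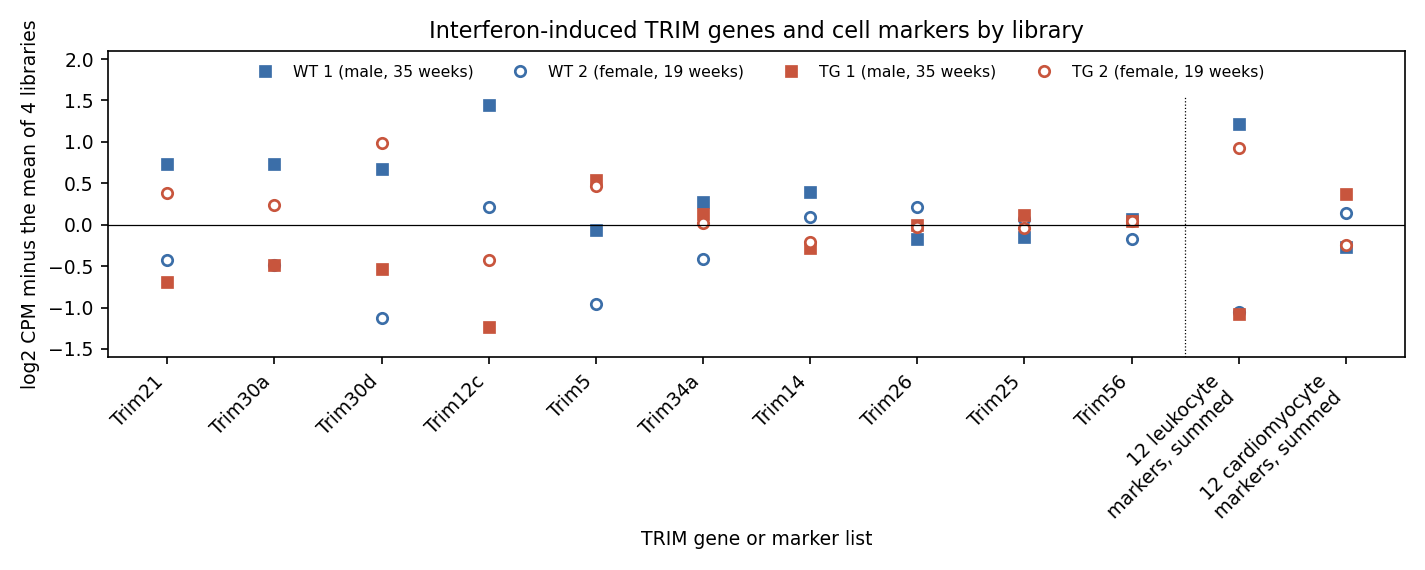
Log2 CPM of the 10 interferon-induced TRIM genes, and of the summed leukocyte and cardiomyocyte markers, in each library, minus the mean of the 4 libraries. Trim21, Trim30a and Trim30d are high in WT 1 and TG 2, as are the leukocyte markers (1306 and 1069 CPM against 272 and 267), while Trim26, Trim25 and Trim56 lie near 0 in all libraries.

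Of 22 genes of antiviral sensing and interferon signalling, 4 passed in the crossed ratio, all higher, and 0 passed the other comparisons. Of all genes, 2.37% passed the crossed ratio in that direction. These 4 and the leukocyte markers were known to differ from earlier results. Among them, the ubiquitin-like modifier Isg15 had 8.57 CPM in WT 1 and 5.18 in TG 2 against 1.02 in WT 2 and 1.71 in TG 1, its protease Usp18 at 13.9 and 8.50 against 2.05 and 2.35, and its conjugating enzyme Ube2l6 at 19.3 and 14.5 against 6.46 and 6.47. The RNA sensors Ddx58 (RIG-I) and Ifih1 did not pass, with log2 crossed ratios of 0.73 ± 0.17 and 1.12 ± 0.21. These sensors and Mavs were named outside the rule, after their values were seen. Mavs, the adaptor below both sensors, had one of -0.40 ± 0.13, and the list's median was 0.48. Among 12 ubiquitin-conjugating enzymes that work with RING ligases, 11 had a crossed ratio above 1, against 49.1% of all genes. Their median was 0.08 (log2), and 0 passed in any comparison. Ube2d3 and Ube2n had log2 values of 0.17 ± 0.12 and 0.19 ± 0.15. More genes of the muscle lists had a crossed ratio below 1 than above. Of the 15 MuRF and Trim72 targets and partners, 12 had a crossed ratio below 1, against 7221 of all 14189 genes, with a median of -0.26. Ttn, Myh6, Tnni3, Mybpc3 and Ckm are also among the cardiomyocyte markers above, so these are not separate observations. Titin (Ttn), a giant sarcomere protein bound by the MuRFs, had -0.78 ± 0.15 (edgeR adjusted p = 0.0570), and the heavy chain Myh6 -0.59 ± 0.15.

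**Figure D5:**
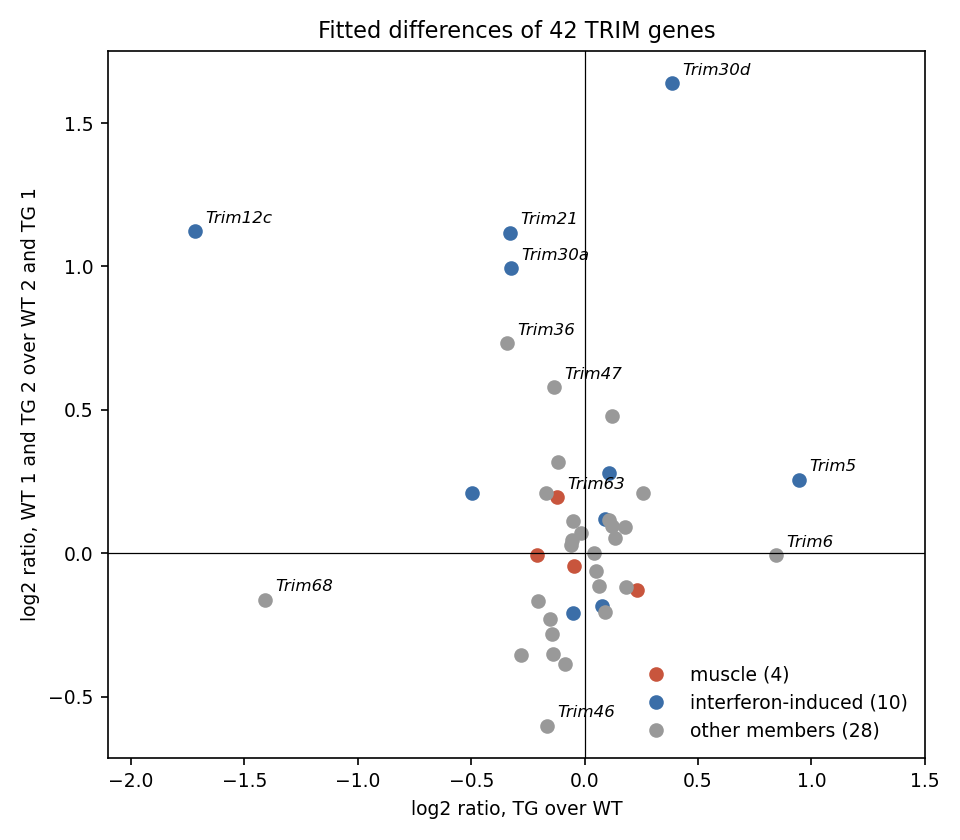
Fitted log2 ratio of TG over WT (x axis) against the log2 crossed ratio (y axis) for the 42 TRIM genes, both computed from the same 4 libraries. The muscle genes lie near the origin, Trim68, Trim12c, Trim5 and Trim6 lie farthest along the x axis, and Trim30d, Trim21, Trim12c and Trim30a are highest on the y axis, at 1.64, 1.12, 1.12 and 0.99, of which Trim12c turns to -0.092 without WT 1.

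Outside the interferon group, Trim47, Trim27 and Trim41 had unadjusted p-values below 0.05 in that comparison. Trim47 and Trim27 are named after their values were seen. Trim47, a ligase known from blood vessel endothelium, had 37.2 CPM in WT 1 and 36.7 in TG 2, while WT 2 had 27.3 and TG 1 had 22.1 (log2 crossed ratio 0.58 ± 0.15, edgeR adjusted p = 0.127). It shares 225 exonic bases with Trim65 on the same strand, where reads may be ambiguous. Trim27 was at 16.8 and 19.5 against 13.1 and 12.9 CPM (0.48 ± 0.15, adjusted p = 0.213). The members of smallest p with a crossed ratio below 1 were Trim41 at -0.35 ± 0.14, Trim39 at -0.39 ± 0.16 and Trim3 at -0.28 ± 0.15, with edgeR adjusted p-values from 0.304 to 0.441.

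By sex and age, 0 of 42 members passed the edgeR test, against 0.0282% of all genes, and 2 had an unadjusted p below 0.05, against 3.62%. DESeq2 called 1 (Trim63) and limma-voom 0, against 0.24% and 0.0282% of all genes, with 2 members below an unadjusted 0.05 in each. The males did not overlap the females in 15 members (35.7%), against 31.5% of all genes, a share near the background. Of these, 10 were higher in the males (23.8% of the members, against 15.5% of all genes). The other 5 were lower (11.9% against 15.9%). Besides Trim63, the second gene below an unadjusted 0.05 was Trim7, whose protein binds glycogenin, the primer of glycogen synthesis. The males had 14.4 and 12.4 CPM and the females 19.7 and 20.5, with both females above both males (log2 ratio -0.58 ± 0.15, edgeR adjusted p = 0.999). Trim35 was at 139 and 146 CPM in the males and 109 and 126 in the females, a log2 ratio of 0.28 ± 0.13. Trim37, a peroxisomal and centrosomal ligase, followed at 0.18 ± 0.12. The lower end held Trim67 at -0.52 ± 0.32 and Trim11 at -0.27 ± 0.17.

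No member of the other groups passed a test. Of the TIF1 nuclear cofactors, which link transcription factors and zinc-finger repressors to chromatin, Trim28 was at 61.1, 53.0, 62.3 and 61.9 CPM in WT 1, WT 2, TG 1 and TG 2. Trim24 ran from 39.4 to 42.7 CPM and Trim33 from 49.8 to 56.0, while Trim66 had too few counts. Of the NHL group, Trim32, the ligase mutated in a limb-girdle muscular dystrophy, ran from 17.9 to 22.5 CPM. Trim2 ran from 20.6 to 26.7, Trim3 from 21.4 to 28.8, and Trim71 was at 0 in all libraries. The COS-box genes Trim36, Trim46 and Trim67, which bind microtubules and are best known from neurons, were at 0.486 to 4.35 CPM, and Trim9 had a single count in all. Trim46 shares 6.30% of its exonic length with the more abundant Krtcap2 on the opposite strand. The membrane-anchored Trim13 and Trim59 ran from 5.98 to 7.72 and from 1.07 to 1.46 CPM. The erythroid members Trim10, with 1 to 4 counts, and Trim58, with 0, were below the limit for being followed. Of TRIM genes known by other names, Mid2 was at 41.95, 35.8, 49.0 and 44.7 CPM in WT 1, WT 2, TG 1 and TG 2 and Pml, an interferon-induced nuclear body gene, at 10.4, 11.6, 9.96 and 11.6. Mid1 ran from 1.82 to 2.77, Mefv was too low to test, and none passed in any comparison.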

How the data were processed

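Total RNA was sequenced from 4 hearts with a stranded total RNA kit, per the labels' protocols. The authors deposited raw read counts per Ensembl gene and, in a second table, a normalized signal equal to the counts divided by 1 factor per library (0.917 to 1.08). The tests used the deposited counts. Per the submitters' processing notes, the tools were STAR 2.3.0, HTSeq 0.6.1, DESeq, FastQC 0.10.0 and CASAVA 1.8.2, with build mm10. The annotation and strand setting are not given in the sources used here. Samples were grouped by their titles.

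In R 4.3.3, edgeR 4.0.16 was fitted to all genes kept by filterByExpr (minimum count 10; 14189 genes), with TMM factors of 0.934 to 1.06, its quasi-likelihood test, Benjamini-Hochberg adjustment and a threshold of 0.05. CPM use TMM-scaled totals, and ratios within a pair a prior count of 2. SEs are the fitted log2 ratio over the root of F. DESeq2 1.42.0, limma-voom (limma 3.58.1), RLE factors, other filters, a block, a genotype covariate and leaving out each library were alternatives. The scripts were tested on simulated data. Positions and exonic lengths came from GENCODE vM21 (same assembly; 99.2% of tested genes matched), near copies from BLAST 2.17.0 and promoter windows from RefSeq.

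The members, gene lists and comparisons were chosen with earlier results of these data known. Named were the muscle, interferon-induced, TIF1, NHL, COS, erythroid and membrane-anchored members, those past the threshold, the 3 of smallest p in each direction of each comparison and the 6 highest per length. From the other lists, called genes (at most 4) or else the 2 of smallest p were named. Values of some genes of these lists are not reported here.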

Additional observations from a re-analysis of the deposited data

Results flagged for a closer look

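Trim21 passed the edgeR test of the crossed ratio. Its log2 crossed ratio was 1.12 (adjusted p = 0.0481), with log2 TG to WT ratios of -1.41 among males and 0.79 among females. The call was lost with limma-voom (adjusted p = 0.0598) and without any 1 library (0.0585 to 0.336). Summed leukocyte markers were high in the same libraries, at 1306 and 1069 CPM in WT 1 and TG 2 and 272 and 267 in the others. Of the sums in WT 1 and TG 2, Cd74 alone gave 573 and 497 CPM. The part of these markers in the result was not tested.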

How the results depend on the processing

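With 2 mice per group, each result rests on few animals, and low genes such as Trim6 (7 to 12 counts) are limited by depth. Members called between TG and WT numbered 0 under every alternative run, and by sex and age 0 except for 1 (Trim63) by DESeq2. For the crossed ratio, the 1 member called became 3 (Trim21, Trim30a and Trim30d) by DESeq2 and without a filter, 0 by limma-voom and 0 without any single library. Over all genes, TG against WT called 3 by DESeq2 and 0 to 6 without each library. Sex and age called 34 by DESeq2, 7 without a filter, 0 with genotype as a covariate and 0 to 7 without each library. The crossed ratio called 703 by DESeq2, 908 without a filter and 40 to 347 without each library, of which 40 were without WT 1 and 109 without TG 2. As shares of all genes, the crossed ratio called 4.95% by DESeq2, 1.84% by limma-voom and 4.2% without a filter, where 21605 genes were tested. Sex and age called 0.24% by DESeq2. The causes were not tested.

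Log2 ratios were followed singly for the muscle members in every comparison and for other members only in those that name them. Among these, signs that turned when single libraries were left out were those of Trim63 (-0.50 to 0.38), Trim54 (-0.16 to 0.058), Trim21 (-0.96 to 0.36), Trim30a (-0.81 to 0.41) and Trim30d (-0.57 to 1.54) for TG over WT. For males over females they were those of Trim72 (-0.16 to 0.053) and Trim55 (-0.048 to 0.30). For the crossed ratio they were those of Trim63 (-0.25 to 0.54), Trim54 (-0.16 to 0.062), Trim55 (-0.29 to 0.060), Trim72 (-0.13 to 0.13, and 0.0027 without a filter), Trim5 (-0.32 to 1.18) and Trim12c (-0.092 to 2.03). No direction is read from these. Trim68 lay between -1.52 and -1.30, Trim12c between -2.20 and -0.98, Trim5 between 0.57 and 1.46 and Trim72 between -0.24 and -0.18 for TG over WT under all alternatives run, and Trim63 between 0.58 and 0.83 for males over females. Of all 42 members, the sign turned under at least 1 alternative in 29 for TG over WT, 24 for males over females and 22 for the crossed ratio.

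The replicate numbers pair mice of the same sex and age. Deviations of same-numbered libraries from their genotype means had a correlation of -0.45 over 14189 genes. With 2 libraries per genotype, both pairs give this same value by construction, so it is a single correlation. With the number as a replicate block, 0 members and 0 genes were called between TG and WT. With the crossed pairing, added after seeing the data, 0 members and 0 genes were called.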
